A study of Rattus norvegicus with 180 samples.

Results

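Heart was compared with the skeletal muscle of the hind limb in the same 3 rats, as numbered in the sample titles, over all miRNAs on the array. The 15 arrays, of 180 in the whole series, were those of the saline-perfused animals 4, 5 and 6: 6 heart arrays (atrium and interventricular septum of each animal) and 9 limb muscle arrays (femoris, gastrocnemial and soleus muscle of each animal). Within an animal the 2 heart arrays were averaged to 1 heart value and the 3 muscle arrays to 1 limb value. The pair was subtracted, so that n = 3 animals for heart against limb muscle. Comparisons with single muscles and between muscles came from a fit of the 15 arrays of these 3 animals, in which the 2 heart arrays count separately. All were male Sprague-Dawley rats of 10 weeks, anesthetized with ether and perfused with saline to wash blood out of the organs. The heart parts of 3 rats that were not perfused (animals 1, 2 and 3, 6 arrays) are given for comparison and entered no test. The 15 arrays belong to a survey of 55 organs on a custom 1-colour Agilent array with probes for miRBase releases 15.0 and 16.0. RNA came from pieces of whole tissue, so fewer cells of a type and less miRNA per cell cannot be told apart in any value below.

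A miRNA is cut from a hairpin transcript as a short strand, and it pairs with messenger RNAs mainly through its seed, the bases 2 to 8 from its 5′ end. Cardiac and skeletal muscle share a set of miRNAs, with miR-1 and the miR-133 group abundant in both. miR-208a and miR-499 lie inside myosin heavy chain genes and are processed with them, and miR-206 is a miRNA of skeletal muscle. Other miRNAs carry a record of body position, since they lie within the HOX clusters, or of imprinting, since they lie in the Dlk1-Dio3 region.

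The sequences below are those of miRNAs that the results turn on, chosen to show the myosin-encoded, HOX-cluster and imprinted miRNAs and the families whose members share a seed, with the seed in capitals. They are RefSeq mature sequences on GRCr8, and 126 of the 149 miRNAs tested had a RefSeq hairpin. The pair of miRNAs with a myosin host gene differ at 1 base of the seed (G8U, numbered from 1 at the 5′ end of miR-208a).
miR-208a-3p: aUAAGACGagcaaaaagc
miR-499-5p: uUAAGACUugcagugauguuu
miR-208a-3p lies at chr15:32395568-32395585 on the minus strand, within the span of Myh6, and miR-499-5p at chr3:164570616-164570636 on the plus strand, within the span of Myh7b. Exon and intron were not annotated in the table used. The skeletal muscle miRNA miR-206 and its neighbour miR-133b are shown next.
miR-206-3p: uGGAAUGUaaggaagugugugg
miR-133b-3p: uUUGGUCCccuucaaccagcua
They lie at chr9:30590747-30590768 and chr9:30594629-30594650, both on the plus strand. miR-206 has the seed of miR-1 (GGAAUGU) and differs from it at 3 of 22 bases (A11G, A21G and U22G, counted along miR-1). miR-133b has the seed of miR-133a (UUGGUCC) and differs from it at 1 base (G22A).

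The 4 miRNAs of the HOX clusters that could be tested are shown as the members of that list.
miR-10a-5p: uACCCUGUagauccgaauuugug
miR-10b-5p: cCCUGUAGaaccgaauuugugu
miR-196a-5p: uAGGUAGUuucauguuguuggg
miR-196b-5p: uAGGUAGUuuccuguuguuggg
miR-10a-5p lies at chr10:81779730-81779752 (plus strand) and miR-10b-5p at chr3:80035886-80035907 (plus strand, within the span of Hoxd4). The RefSeq entry for miR-10b begins 2 bases into the miR-10a sequence, so the capitals of the pair do not line up. miR-196a-5p lies at chr7:135988900-135988921 (plus strand) and miR-196b-5p at chr4:82661149-82661170 (minus strand), and they share a seed and differ at 1 base (A12C). From the Dlk1-Dio3 region and outside it, a further pair of miRNAs stood higher in limb muscle.
miR-127-3p: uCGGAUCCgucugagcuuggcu
miR-128-3p: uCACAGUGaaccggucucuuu
miR-127-3p lies at chr6:134328510-134328531 (plus strand, within the span of Rtl1). miR-128-3p has a copy at chr8:120963807-120963827 (minus strand, within the span of Arpp21) and another at chr13:42251933-42251953 (plus strand, within the span of R3hdm1).

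The miR-29 family and a pair of the miR-181 family are shown as miRNAs that were higher in heart.
miR-29a-3p: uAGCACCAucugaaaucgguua
miR-29b-3p: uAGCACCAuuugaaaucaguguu
miR-29c-3p: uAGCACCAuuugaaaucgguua
miR-181c-5p: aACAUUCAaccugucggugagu
miR-181d-5p: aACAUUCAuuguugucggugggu
The 3 members of the miR-29 family share 1 seed, and miR-29a and miR-29c differ at 1 base (C10U). miR-29a-3p (chr4:60617968-60617989) and 1 copy of miR-29b-3p (chr4:60618342-60618364) lie side by side on the minus strand, and the other copy of miR-29b-3p (chr13:109098882-109098904) lies beside miR-29c-3p (chr13:109099412-109099433) on the plus strand. miR-181c-5p (chr19:40888314-40888335) and miR-181d-5p (chr19:40888484-40888506) are neighbours on the plus strand.

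Signals below are background-subtracted spot signals, averaged over the spots of a probe and the probes of a miRNA and scaled between arrays, so they are relative values, and 1 miRNA's signal cannot be set against another's as an amount. Before scaling, the 75th percentile of the miRNAs used for scaling lay between 1769 and 3039 on the heart arrays and between 771 and 3161 on the limb arrays. A miRNA is termed detected on an array where the scanner software called more than 50% of its spots well above background, which held for 122 to 151 miRNAs on a heart array and 110 to 168 on a limb array. No spot was saturated. miR-133b was the brightest miRNA on all 15 arrays. The scaling set the 75th percentile of 37 miRNAs to 2118 on every array, and on 5 of the 6 heart arrays the miRNA at that percentile was miR-29a. In every animal the heart arrays and the limb arrays were on different slides, so slide and tissue cannot be told apart within an animal. In animal 4 they were also scanned on different days, so scan day and tissue cannot be told apart there. The arrays of animal 5 shared a scan day, as did those of animal 6.

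The 2 heart parts gave nearly the same values. Their arrays in any 1 animal differed by an SD of 0.0859 to 0.174 (log2) over the miRNAs detected on both, and the 6 animals' atrium and septum pairs were the 6 closest of 4467 within-animal pairs of organs. Hearts of different animals differed by 0.211 to 0.366, and limb muscles of an animal by 0.239 to 0.771. No miRNA differed between atrium and septum (limma, 0 of 149 at an adjusted p under 0.05 and 0 at an unadjusted p under 0.05), and each difference lay within -0.23 to 0.24. Fitted on the 6 heart arrays alone, 12 had an unadjusted p under 0.05 and the smallest adjusted p was 0.281. For heart against limb muscle the 2 parts are treated as 1 heart value per animal and add no replication. In the fits by single muscle given below they count separately. The labels do not say how cleanly the 2 parts were separated, so these values do not show that atrium and septum are alike.

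As processed here, heart and limb muscle differed in 91 of 149 miRNAs. Of 717 miRNAs on the array, 149 were tested because 1 or more of the 5 organs detected them in all 3 animals, and those 91 (61.1%) differed at an adjusted p under 0.05 (limma over 3 animal pairs). In 30 (20.1% of those tested) the signal was higher in heart and in 61 (40.9%) higher in limb muscle, and all 91 differed in the same direction in the 3 animals. Of the 149, 25 entered the test only through limb muscle, which favoured a higher limb signal, and 4 were not detected on any limb array. Both shares include such miRNAs. At least 2-fold differences were called for 10 miRNAs (6.71%) in favour of heart and 39 (26.2%) in favour of limb muscle. For 59 miRNAs (39.6%) the 6 heart arrays did not overlap the 9 limb arrays, 18 of them (12.1%) higher in heart and 41 (27.5%) higher in limb muscle. The split depended on the scaling: 94 were called higher in heart and 35 in limb muscle with the 75th percentile taken over all miRNAs, 86 and 38 in the authors' table, and 59 and 39 after quantile normalization. The median log2 difference over the 149 miRNAs was -0.18 as scaled here and 0.82, 0.51 and 0.14 in those 3 settings, and small differences should be read against it. The counts also depended on the floor and on which miRNAs were tested. They were 16 and 25 with a floor 4 times as high, 20 and 48 for the 197 miRNAs that any of the 15 arrays detected, and 0 and 1 over all 717. An exact permutation test over 3 pairs for a single miRNA cannot give a p under 0.25, so the p-values rest on a spread that limma estimated over all miRNAs, and they measure the spread between these 3 animals.

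**Figure D1:**
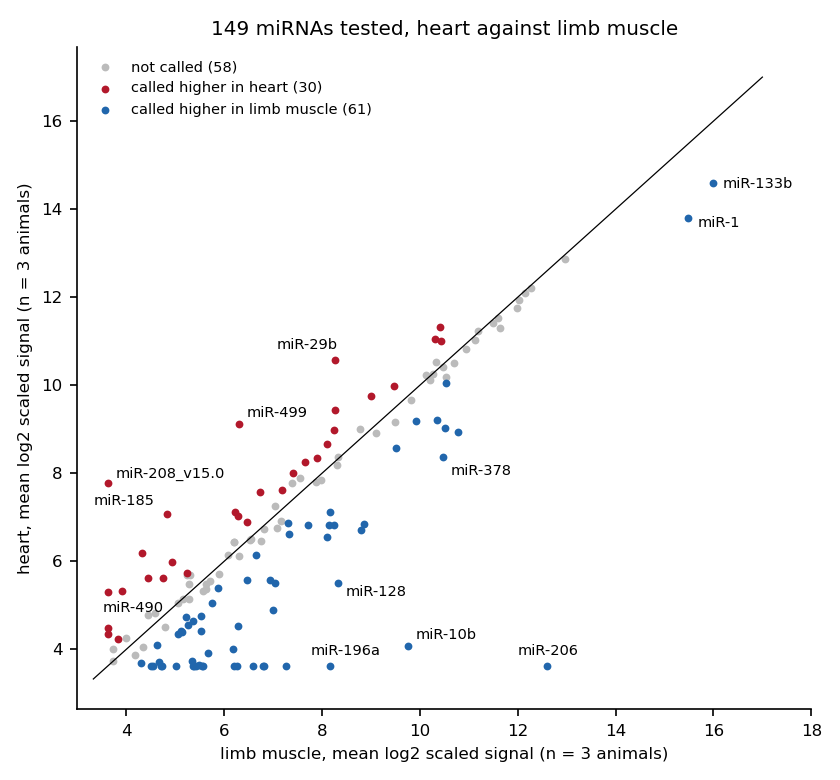
Each of the 149 miRNAs by its mean log2 signal in limb muscle and in heart (means over animals 4, 5 and 6), with equal levels on the diagonal. The 30 miRNAs called higher in heart and the 61 called higher in limb muscle are coloured, and the 58 not called are grey. miR-206 lies at the bottom right, at the floor in heart.

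The labels were checked against the 3 miRNAs given as markers. miR-208 (the probe set of release 15.0) read 218, 166, 258, 222, 233 and 241 on the heart arrays, in the order atrium and septum of animals 4, 5 and 6, and was not detected on any of the 9 limb arrays. miR-206 read between 3730 and 10927 on the limb arrays, with a median of 6204, and was not detected on any of the 6 heart arrays. miR-499 was detected on all heart arrays, at 445 to 726 with a median of 517, and on 6 of the 9 limb arrays. The first pair of markers separated the groups completely and fitted the labels of all 15 arrays, whereas miR-499 overlapped between heart and soleus. These 3 miRNAs were named as markers when the comparison was set up, so their separation is a description of the groups.

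miR-208 was at least 13.2-fold higher in heart than in limb muscle (adjusted p = 4.63e-10, limma). This is a lower bound, because its limb signal was not well above background. In each such bound the undetected tissue was set, per array, to the highest of the floor of 12.4, the lowest detected signal on that array and the miRNA's own signal. Among the 55 organs of perfused animals it was detected on all 3 arrays of the 2 heart parts only. The not perfused hearts gave 190 to 245. The release 16.0 probe set of the same miRNA read 16.2 to 30.4 in heart, and the opposite arm miR-208* 15.3 to 25.2. Neither was detected on a limb array, and their log2 differences of 0.87 and 0.72 passed the test as scaled here but turned to -0.19 and -0.28 under normexp background correction. Without animal 5 miR-208* was not called (adjusted p = 0.057). Both lie so near the floor of 12.4 that the size of their differences has no meaning.

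miR-499 was higher in heart by 2.82 on the log2 scale (SE 0.16, 7.05-fold, adjusted p = 1.76e-08, limma), with differences of 3.07, 2.64 and 2.74 in animals 4, 5 and 6. As only 6 of the 9 limb arrays detected it, this size is approximate. The 3 muscles differed in its level. In animals 4, 5 and 6 it read 12.2, 60.3 and 35.2 in femoris muscle, 88.0, 13.6 and 109 in gastrocnemial muscle, and 214, 557 and 292 in soleus muscle. Soleus overlapped heart and femoris and gastrocnemial did not. It was detected on 1 of 3 femoris arrays, 2 of 3 gastrocnemial arrays and 3 of 3 soleus arrays. Heart exceeded femoris by 4.23 (adjusted p = 3.94e-05, limma) and gastrocnemial by 3.46 (adjusted p = 0.000267), sizes that rest in part on signals not well above background, whereas the difference from soleus was 0.77 (adjusted p = 0.3). Soleus itself exceeded the mean of the other muscles by 3.07 (SE 0.60, adjusted p = 0.00147), a size that rests in part on the same signals. The largest such difference of any miRNA was 2.35 with a floor 4 times as high and 2.47 without animal 5.

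**Figure D2:**
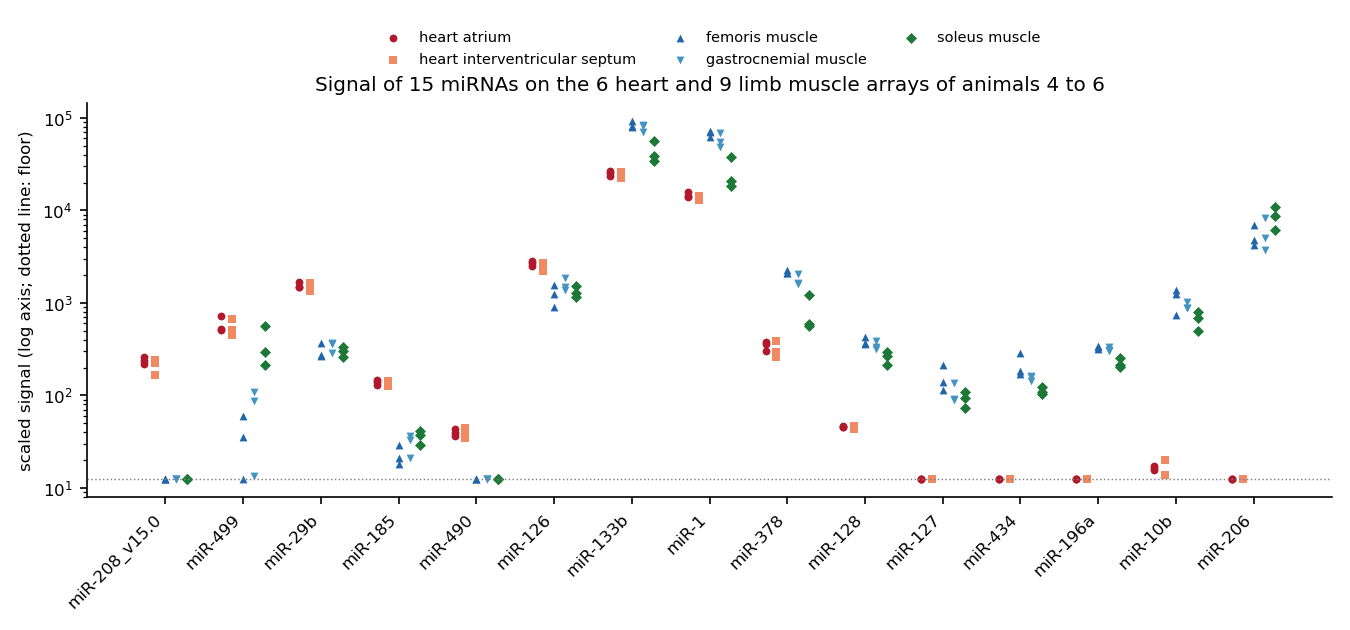
Scaled signal of 15 miRNAs on the 6 heart arrays and 9 limb arrays (log axis, 1 point per array, coloured by organ, with the floor drawn as a line). miR-208 and miR-490 sit at the floor on every limb array, and miR-206 and miR-196a on every heart array. miR-499 is the marker whose soleus points reach those of heart.

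Among the listed striated muscle miRNAs that were tested, miR-206 was the extreme, at least 497-fold higher in limb muscle (adjusted p = 1.57e-12, limma). By organ means, its levels were 8599 in soleus, 5701 in gastrocnemial and 5331 in femoris muscle, then 4806 in the organ labelled interseptum, 2112 in esophagus and 1793 in tongue. The SDs of the 3 limb muscles were 2362, 2359.9 and 1468 (n = 3), and the gap between gastrocnemial and femoris was smaller than each of them, whereas soleus lay above both by more than 1 SD. Soleus exceeded the mean of the other muscles of the same animal by 0.66 (adjusted p = 0.0131, limma).

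miR-1, the most studied muscle miRNA and a partner of miR-206 by seed, was present at high signal in both tissues and higher in limb muscle. It read 13094 to 15996 in heart (median 14115) and 18587 to 72141 in limb muscle (median 54598), without overlap. The log2 difference was -1.67 (SE 0.16, adjusted p = 1.46e-06, limma), 3.19-fold in favour of limb muscle. It was -2.25 against femoris, -1.98 against gastrocnemial and -0.78 against soleus (adjusted p = 0.00378). Soleus was the muscle nearest to heart in miR-1, at 37675, 18587 and 20837 in animals 4, 5 and 6.

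The miR-133 group, encoded beside miR-1 and miR-206, ran the same way. miR-133b read 22409.5 to 26566 in heart and 33821 to 92022 in limb muscle, a log2 difference of -1.41 (SE 0.16, adjusted p = 7.48e-06, limma). miR-133a (450 to 592 in heart, 686 to 2302 in limb) differed by -1.49 (adjusted p = 2.52e-05), and its opposite arm miR-133a* by -1.84 (adjusted p = 5.77e-07). None of these 3 overlapped between the groups. How far the probes for miR-133a and miR-133b, which differ at 1 base, read each other was not tested. Quantile normalization gave a difference of 0 for miR-1 and miR-133b, which hold the same top ranks on every array, and the other scalings kept the direction of all 4. With a floor 4 times as high miR-133a kept its difference but was not called (adjusted p = 0.055). Of 15 listed striated muscle miRNAs, 9 were tested, with 4 called higher in heart (miR-499 and the 3 probe sets of miR-208) and 5 in limb muscle, and a median log2 difference of -1.41. Over all 149 the shares called were 20.1% and 40.9% and the median was -0.18. The 3 probe sets of miR-208 come from 1 hairpin and were detected in heart alone, and miR-206 in limb muscle alone, so these 4 entered the test through 1 tissue and had to differ in that direction.

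The 4 HOX-cluster miRNAs tested, of 11 listed, were all called higher in limb muscle, against 40.9% of all 149, with a median log2 difference of -3.85 (also -3.85 with undetected miRNAs at their bound) against -0.18 over all 149. Of the 4, 3 entered the test only through limb muscle and had to differ in that direction, and the call of the fourth, miR-10a-5p, depended on the processing as given below. With a floor 4 times as high 3 of the 4 were called and the median was -1.97. miR-10b, which lies within the span of Hoxd4, read 16.4, 19.9, 17.2, 20.2, 15.6 and 13.6 on the heart arrays in the order given above, and 496 to 1386 with a median of 876 on the limb arrays. The groups were far apart, and the heart signal was near the floor and detected on 2 of 6 arrays. The log2 difference was -5.67 (adjusted p = 8.45e-11, limma), at -5.77, -5.28 and -5.96 in animals 4, 5 and 6. As 4 of the 6 heart signals were not well above background its size is approximate.

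miR-196a read 203 to 346 in limb muscle (median 312) and was not detected on any heart array, which gave a limb level at least 23.0-fold higher (adjusted p = 1.45e-10, limma). miR-196b read 83.0 to 137 in limb muscle and was also not detected in heart, at least 8.99-fold higher (adjusted p = 4.51e-09). The limb muscles held ranks 1, 2 and 6 among 55 organs for miR-196a, with 332 in femoris, 315 in gastrocnemial and 224.5 in soleus muscle. For miR-10b they were unremarkable, at ranks 11, 14 and 17, while the heart parts ranked 49 and 50.

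miR-10a-5p differed less, at 46.3 to 214 in heart (median 148) and 239 to 375 in limb muscle (median 306), with a log2 difference of -1.42 (SE 0.31, adjusted p = 0.00182, limma). The size rested on animal 6, at -2.73 against -0.75 and -0.78 in animals 4 and 5. In animal 6 the heart arrays read 51.2 and 46.3, below the 4 other heart arrays (140.5 to 214) and below the not perfused hearts (151 to 196). Without animal 4 its adjusted p was 0.064. It did not pass with another scaling (normexp apart), with a floor 4 times as high, with a variance trend, or without the 3 limb arrays whose labels give 2 animal numbers (adjusted p = 0.09).

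**Figure D3:**
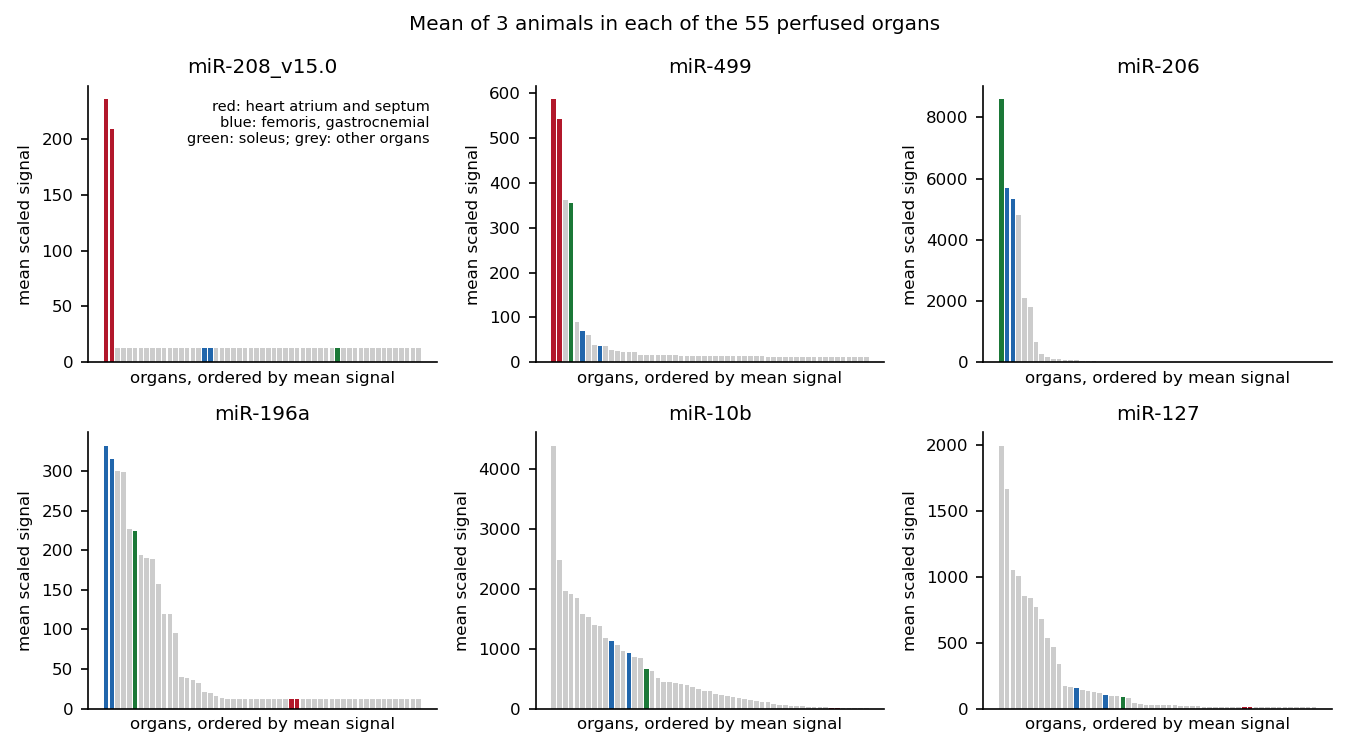
Mean scaled signal of 6 miRNAs in each of the 55 organs of perfused animals (bars from 0 on a linear axis, organs ordered by level, n = 3 per organ), with the heart parts in red, femoris and gastrocnemial muscle in blue and soleus in green. miR-208 leaves the floor in the heart parts only, the limb muscles lead for miR-206 and lie among the first 6 organs for miR-196a, and for miR-10b and miR-127 the limb muscles hold middle ranks with heart near or at the floor.

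The Dlk1-Dio3 region, an imprinted domain dense in miRNA hairpins on rat chromosome 6, gave 16 tested miRNAs of 100 listed. All 16 were called higher in limb muscle, against 40.9% of all 149, with a median log2 difference of -1.75 (-1.74 with undetected miRNAs at their bound) and a range from -3.63 to -0.71, and 15 had no overlap between groups, against 27.5% of all 149 that were higher in limb muscle without overlap. Of the 16, 14 were not detected on any heart array, so they entered the test only through limb muscle and had to differ in that direction. With a floor 4 times as high 4 of the 16 were called and the median was -0.04, so the size of the difference over the list is set by where the floor lies. Over the whole list of 100, 27 members were detected on some limb array and 4 on some heart array, and the summed signal was 51.2 to 91.9 on a heart array and 717 to 1666 on a limb array. Of these, 15 matched a hairpin, 4 between 134321142 and 134331416 and 11 between 134543445 and 134579838 on chromosome 6 (GRCr8).

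miR-434 (103 to 290 in limb muscle, at least 12.3-fold), miR-127 (73.6 to 214, at least 9.04-fold), miR-299 (66.3 to 150.5, at least 7.74-fold) and miR-329 (45.0 to 134, at least 6.18-fold) were the largest, each undetected in heart (adjusted p 1.75e-09, 1.2e-08, 8.88e-09 and 3.47e-08, limma). miR-329 was not called with the floor 4 times as high (adjusted p = 0.058). Femoris had the highest miR-127, at 214, 141 and 114.5 in animals 4, 5 and 6, against 108, 73.6 and 92.8 in soleus. miR-494, in its release 15.0 probe set, was the brightest member in heart (35.5 to 66.9) and read 74.1 to 166 in limb muscle, a log2 difference of -1.36 (adjusted p = 3.55e-05). For miR-127 the limb muscles ranked 14, 19 and 22 of 55 organs, behind the pituitary gland (1996) and thalamus (1669), and heart was at the floor. With the percentile over all miRNAs and with quantile normalization 1 of the 16 was above 0, and 15 were still called higher in limb muscle.

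miR-675*, cut from the imprinted transcript H19 (hairpin at 207161752 to 207161835 on chromosome 1), was another limb muscle miRNA that was not detected in heart. In animals 4, 5 and 6 it read 134, 136 and 117 in femoris, 85.5, 152 and 85.0 in gastrocnemial and 57.0, 16.3 and 29.3 in soleus muscle. Its limb level was at least 5.93-fold higher than in heart (adjusted p = 3.47e-08, limma), and since it entered the test only through limb muscle it had to differ in that direction. Soleus was lower than the other muscles by 1.94 on the log2 scale (soleus minus the others -1.94, adjusted p = 0.000638).

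miR-128, whose 2 hairpins lie within the gene spans named above, was detected on all 15 arrays and is thus free of the floor. It read 43.7 to 47.1 on the heart arrays (median 45.7) and 213 to 429 on the limb arrays (median 331), a log2 difference of -2.82 (SE 0.15, 7.07-fold, adjusted p = 1.25e-08, limma). Its hearts lay within a narrow band, and the lowest limb array was far above the highest heart array. miR-335 (10.8 to 30.5 in heart, 56.7 to 103 in limb) differed by -2.19 and miR-500 (25.9 to 32.4 and 80.1 to 175) by -2.12. miR-500 shares the span of Clcn5 on chromosome X with miR-532-5p and miR-362*, which differed by -1.76 and -1.60, and the 3 were called together. With a floor 4 times as high miR-335, miR-532-5p and miR-362* were not called (adjusted p = 0.097, 0.22 and 0.42).

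miR-378, miR-378*, miR-365 and miR-193, chosen in part after their values were seen, were called higher in limb muscle and lower in soleus than in the other muscles. miR-378, encoded in a gene of the PGC-1 family of energy metabolism regulators, read 263 to 392 in heart (median 333) and 569 to 2292 in limb muscle (median 1637). The log2 difference was -2.11 (SE 0.18, adjusted p = 5.99e-07, limma), with soleus minus the other muscles at -1.40 (adjusted p = 0.000688). Its opposite arm miR-378* differed by -2.08, with soleus minus the others at -0.72 (adjusted p = 0.00129). miR-365 (-2.03) and its chromosome 10 neighbour miR-193 (-1.75) were called as well, and soleus minus the others was -1.15 for miR-365 (adjusted p = 0.00147) and -0.85 for miR-193 (adjusted p = 0.0025).

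miR-29b was higher in heart, at a high signal. It read 1478, 1341, 1499, 1465, 1688 and 1650 on the heart arrays in the order given above, and 259 to 366 on the limb arrays with a median of 300.0. Soleus minus the other muscles was -0.10 (adjusted p = 0.539, limma), and the lowest heart array was well above the highest limb array. The log2 difference was 2.29 (SE 0.16, 4.9-fold, adjusted p = 1.79e-07, limma). Among 55 organs rno-miR-29b ranked 32 and 34 in the heart parts and 53, 54 and 55 in the limb muscles, so it was the limb muscles that lay at an end of the range.

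The other members of this family, whose best known targets are collagen messenger RNAs, were also called higher in heart, by smaller amounts. miR-29a read 2118 to 2180 in heart and 1099 to 1513 in limb muscle (log2 difference 0.74, adjusted p = 0.00102, limma), but its heart level is fixed by the scaling described above, so its small spread in heart has no meaning. miR-29c read 879 to 1212 and 409 to 1009 with overlap (0.51, adjusted p = 0.0298). Leaving out any 1 animal took the miR-29c call away, at 0.26 without animal 6. It was also not called without soleus (0.29, adjusted p = 0.18) or with a floor 4 times as high (adjusted p = 0.25). Its opposite arm miR-29c* went the other way, at -0.47 (adjusted p = 0.0303), was not called without animal 4 or 5 (adjusted p = 0.21 and 0.18) and lost its direction with 3 of the scalings. Since miR-29a and miR-29c differ at 1 base, the cross-reading of their probes was not tested.

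Further miRNAs were called higher in heart. miR-185, from a hairpin within Tango2, read 127 to 146 in heart (median 134) and 18.3 to 41.5 in limb muscle (median 29.3), without overlap. Its log2 difference was 2.24 (SE 0.15, 4.73-fold, adjusted p = 9.24e-08, limma), and it was 2.18, 2.35 and 2.20 in animals 4, 5 and 6. miR-490, from a hairpin within the muscarinic receptor gene Chrm2, read 34.6 to 44.5 in heart and was not detected on any limb array, at least 2.36-fold higher (adjusted p = 1.29e-06). Since miR-490 entered the test only through heart, it had to differ in that direction. Under normexp its difference was 0.07 (adjusted p = 0.74), and with a floor 4 times as high it was 0.

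miR-210, a miRNA induced by hypoxia-inducible factor, read 59.6 to 83.1 in heart and in animals 4, 5 and 6 it read 6.80, 10.9 and 12.8 in femoris, 23.4, 9.25 and 19.8 in gastrocnemial and 60.5, 21.9 and 35.6 in soleus muscle. Heart exceeded limb muscle (adjusted p = 8.57e-07, limma), with 4 of 9 limb arrays detecting it, and 1 soleus array reached the heart range. Heart exceeded soleus, which detected it on all 3 arrays, by 1.00 (adjusted p = 0.000718). It was detected on 1 of 3 gastrocnemial arrays and on 0 of 3 femoris arrays, where its signal was at the floor, so no size is given for those muscles or for limb muscle as a whole. Under normexp the difference was 0.14 (adjusted p = 0.50).

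The miR-181 pair of chromosome 19 was higher in heart, miR-181d by 1.42 (35.2 to 44.6 in heart, 7.17 to 19.3 in limb) and miR-181c by 1.18 (44.5 to 54.8 and 16.2 to 30.7), with adjusted p 7.39e-06 and 4.74e-05 (limma). Their family member miR-181b was lower in heart (-0.69, adjusted p = 0.00223) and miR-181a was not called (-0.06). These directions depended on the background correction and scaling, since miR-181c and miR-181d were -0.16 and -0.18 under normexp, and miR-181b was 0.31 with the percentile over all miRNAs. With a floor 4 times as high miR-181c was 0.042 (adjusted p = 0.53) and miR-181d had no difference, and limb arrays detected miR-181d on 3 of 9 and miR-181c on 6 of 9. No limb muscle detected miR-181d in all 3 animals, so it entered the test only through heart, which favoured that direction. miR-130a (636 to 802 in heart, 259 to 407 in limb) differed by 1.18 and miR-342-3p (57.5 to 70.3 and 25.6 to 37.8) by 1.05, the latter at -0.077 under normexp.

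**Figure D4:**
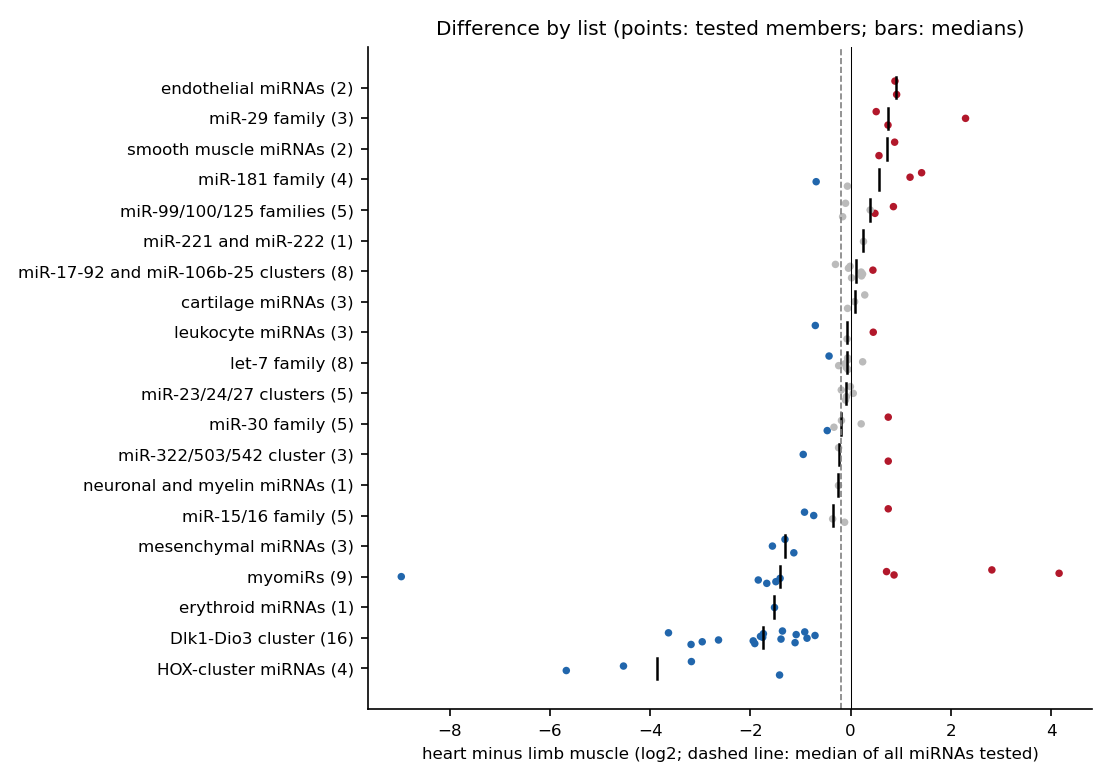
Log2 difference, heart minus limb muscle, of each tested miRNA by list (1 point per miRNA, called ones coloured, list median as a bar). The HOX-cluster and Dlk1-Dio3 miRNAs lie below 0 without exception, and the striated muscle list (myomiRs) spans the whole range from -8.96 to 4.16. As scaled here, the let-7, miR-17-92 and miR-23/24/27 lists lie close to 0.

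Marker miRNAs of other cell types moved with the comparison. miR-126, the endothelial miRNA, read 2214 to 2837 in heart and 913 to 1861 in limb muscle, a log2 difference of 0.92 (adjusted p = 0.000226, limma), and its opposite arm miR-126* differed by 0.88. miR-143 and miR-145, of smooth muscle, were higher in heart by 0.56 and 0.88 (adjusted p = 0.00588 and 0.00579), with miR-145 at -0.24 under normexp. miR-126* was 0.16 under normexp (adjusted p = 0.43), and neither it nor miR-145 was called with a floor 4 times as high (adjusted p = 0.27 and 0.53). Without animal 4, miR-126* and miR-145 were not called (adjusted p = 0.11 and 0.076), nor was miR-143 without animal 5 (adjusted p = 0.061). The summed signal of the endothelial list was 2317 to 2965 in heart and 954 to 1988 in limb muscle, and that of the smooth muscle list 1930 to 2279 and 1061 to 1872. Their part in the differences of other miRNAs was not tested.

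The mesenchymal miRNAs of fibroblasts and other stroma, miR-199a-5p, miR-199a-3p and miR-214, were all higher in limb muscle, at -1.56, -1.13 and -1.31 (adjusted p 7.61e-05, 0.000463 and 0.000125, limma). The difference was largest against soleus and was called without it, with all 3 called and a median of -0.84 from femoris and gastrocnemial alone. miR-199a-5p read 223, 177 and 108 in femoris, 490, 266 and 96.3 in gastrocnemial and 733, 393 and 603 in soleus muscle of animals 4, 5 and 6, against 85.5 to 99.7 in heart. Heart minus soleus was -2.58 (adjusted p = 3.7e-05), heart minus gastrocnemial -1.31 (adjusted p = 0.00541) and heart minus femoris -0.79 (adjusted p = 0.0613). With the percentile over all miRNAs, 1 of these 3 was still called, and with a floor 4 times as high 0 were (adjusted p 0.095, 0.12 and 0.093), nor were any when all 197 detected miRNAs were tested (adjusted p 0.061, 0.078 and 0.058). The summed list was 728 to 867 in heart and 718 to 4198 in limb muscle.

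Blood could be read from miR-451, the erythroid miRNA. It read 15.4 to 86.8 on the perfused heart arrays, 38.8 to 284 on the limb arrays and 223 to 800 on the hearts that were not perfused. Limb muscle was higher by 1.52 (heart minus limb -1.52, SE 0.33, adjusted p = 0.00157, limma), but by animal the difference was -1.15, -2.87 and -0.54, and the groups overlapped. It was not called without animal 4 (adjusted p = 0.094), with another scaling (normexp apart), or without the 3 limb arrays whose labels give 2 animal numbers (adjusted p = 0.12). Nor was it called with a floor 4 times as high (adjusted p = 0.095) or with a variance trend (adjusted p = 0.067). Of the leukocyte miRNAs, miR-223 was lower in heart by 0.70 (-0.70, adjusted p = 0.00168) as scaled here, but it was 0.30 with the percentile over all miRNAs (adjusted p = 0.12) and -0.01 in the authors' table (adjusted p = 0.95). miR-150 was higher by 0.45 (adjusted p = 0.0203, but 0.064 without animal 4, 0.14 without animal 5 and 0.28 under normexp), and miR-142-3p was not called (-0.07). The summed leukocyte list was 484 to 605 in heart and 432 to 678 in limb muscle, and their part in the other differences was not tested.

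Epithelial and liver lists had no tested member, with summed signals of at most 8.52 in heart and 31.0 in limb muscle for the epithelial list and 0 throughout for the liver list. The neuronal list had 1 tested member, miR-338, which was not called (-0.25), and a sum of 36.6 to 48.0 in heart and 24.8 to 161 in limb muscle. The 3 cartilage miRNAs were not called as scaled here (median 0.08). With the percentile over all miRNAs all 3 (median 1.08) and miR-338 (0.75) were called higher in heart, and in the authors' table the 3 (median 0.80) but not miR-338. Under normexp all 3 cartilage miRNAs lay below 0 (median -0.36), with 1 called higher in limb muscle. miR-338 was called higher in limb muscle under normexp (-0.59) and without the 3 limb arrays whose labels give 2 animal numbers (-0.45).

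The widely expressed families are given beside the shares called over all 149 miRNAs (20.1% higher in heart and 40.9% higher in limb muscle), and no difference in share was tested. Of the 8 let-7 miRNAs 1 was called, with a median of -0.07 and a range from -0.43 to 0.24, and the 5 miRNAs of the miR-23/24/27 clusters had a median of -0.08 with 0 called. Of 8 miRNAs of the miR-17-92 and miR-106b-25 clusters 1 was called, miR-92a, at 0.44 (adjusted p = 0.0316, but 0.083 without animal 4, 0.31 without animal 5 and 0.64 under normexp). With the percentile over all miRNAs all 8, 5 and 8 of them were called higher in heart. Under normexp 0 of the 8 miRNAs of the miR-17-92 and miR-106b-25 clusters were called higher in heart and 4 higher in limb muscle (median -0.37). The miR-15/16 family split, with miR-322 higher in heart (0.75) and miR-497 (-0.92) and miR-195 (-0.74) higher in limb muscle, the latter pair turning to 0.081 and 0.26 with the percentile over all miRNAs and not called in the authors' table (adjusted p = 0.10 and 0.78). The families of miR-99, miR-100 and miR-125 had 2 of 5 called higher in heart, against 20.1% over all 149, miR-125a-5p (0.85, but 0.27 under normexp with adjusted p = 0.15) among them. All 5 were called higher in heart with the percentile over all miRNAs and in the authors' table, 4 with quantile normalization and 0 under normexp. The cluster of miR-322 had 1 of 3 called each way, miR-322 and miR-542-5p. Of these 3, 2 entered the test only through limb muscle. miR-542-5p (-0.95) was not called with the percentile over all miRNAs (-0.018, adjusted p = 0.91), in the authors' table (-0.22, adjusted p = 0.15) or with a floor 4 times as high, and in the former pair of settings 2 of the 3 were called higher in heart and 0 in limb muscle. miR-221 was not called as scaled here (0.24). It was called higher in heart with the percentile over all miRNAs (1.24), quantile normalization (0.95) and in the authors' table (1.02). Under normexp it was called higher in limb muscle (-0.52).

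The 2 arms of 1 hairpin were tested in 10 cases. Both arms were called in 7 of them (61.1% of all single miRNAs tested were called), in the same direction in 5 and in opposite directions for miR-29c and miR-652 (0.74, and -0.70 for miR-652*). The opposite directions depended on the scaling. miR-652* was 0.30 with the percentile over all miRNAs, 0.018 with quantile normalization and -0.0047 in the authors' table, where it was not called (adjusted p = 0.98), and miR-29c* turned as given above. Under normexp miR-652 was 0.11 (adjusted p = 0.62). Of the miR-30 family, miR-30e was higher in heart (0.75, adjusted p = 0.0011, limma) and miR-30a and miR-30a* were higher in limb muscle (-0.47 and -1.03). miR-30a turned to 0.53 with the percentile over all miRNAs and to 0.23 in the authors' table, and miR-30a* was not called there, at -0.028 (adjusted p = 0.90) and -0.34 (adjusted p = 0.079). Without animal 4 neither miR-30a nor miR-652* was called (adjusted p = 0.075 and 0.15), and without animal 5 neither these (adjusted p = 0.097 and 0.12) nor miR-652 (adjusted p = 0.071). For 89 of the 90 called miRNAs with more than 1 probe, the probes gave the same direction, with probes that showed no difference left out. This agreement could be nominal, as the 2 probes differed by -0.66 and -0.0016 for miR-7a and by -2.72 and -0.16 for miR-300-3p. The share was not counted for miRNAs that were not called, and miR-151 among them had probes of both signs (-0.019 and 0.076).

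The comparison was then made for each muscle, in a fit with the 5 organs and animal as terms. Against femoris 97 of 149 miRNAs (65.1%) were called, 33 (22.1%) higher in heart and 64 (43%) lower. Against gastrocnemial 97 (65.1%) were called, 26 (17.4%) higher and 71 (47.7%) lower. Against soleus 87 (58.4%) were called, 37 (24.8%) higher and 50 (33.6%) lower. Called in the same direction against all 3 muscles were 21 higher and 41 lower in heart. In this fit the 2 near-identical heart arrays count separately, and with them averaged first the totals called were 87, 85 and 80 in place of 97, 97 and 87. The 3 comparisons share the heart arrays.

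Soleus, the muscle with the largest share of slow fibres, differed from the mean of femoris and gastrocnemial in 71 miRNAs (47.7%), 12 higher (8.05%) and 59 lower (39.6%). These counts rested on single animals: 4 to 14 were higher and 18 to 57 lower with 1 animal left out. After miR-499, the called miRNAs furthest above the other muscles were miR-199a-5p (1.52) and miR-214 (1.42), with miR-210 called too but given no size because femoris and most gastrocnemial arrays did not detect it, and those furthest below were miR-675* (-1.94), miR-378 (-1.40) and miR-1 (-1.34). As scaled here, miR-30d was called in opposite directions, lower in heart than in femoris (-0.72) and gastrocnemial (-0.42) and higher than in soleus (0.58). The single-muscle differences were not fitted with the percentile over all miRNAs, with quantile normalization or in the authors' table. There the median heart minus limb difference over all miRNAs tested was 0.82, 0.14 and 0.51, against -0.18 here. Both directions of miR-30d are therefore known only as scaled here.

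**Figure D5:**
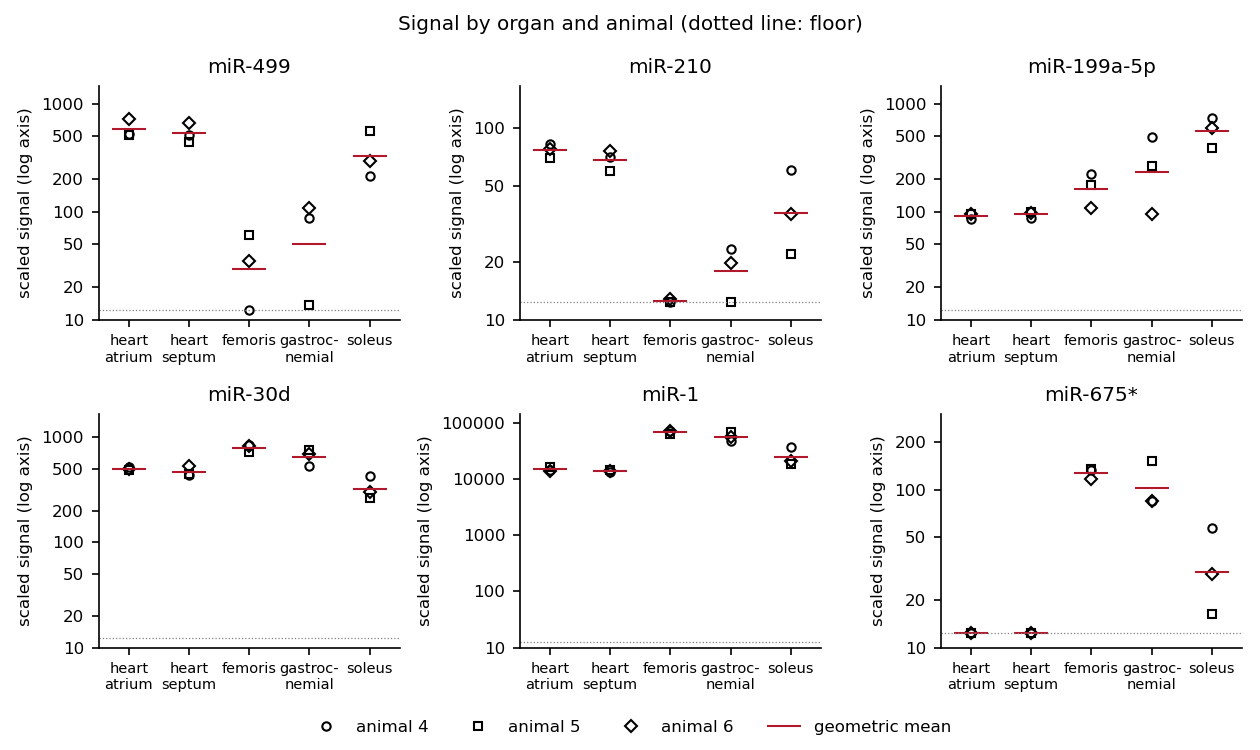
Scaled signal of 6 miRNAs by organ (log axis, 1 point per animal, bar at the geometric mean of animals 4, 5 and 6). Soleus lies nearer to heart than femoris or gastrocnemial does for miR-499, miR-210, miR-1 and miR-675*, furthest from heart for miR-199a-5p, and on the other side of heart for miR-30d.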

How the data were processed

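The authors hybridised Cy3-labelled RNA to 1-colour arrays and deposited the scanner output, which holds a background-subtracted signal intensity per spot and a total gene signal per miRNA (Agilent Feature Extraction 10.7.3 per the submitters' processing notes), and a value table that proved equal to the total gene signal times 1 factor per array. Here the processed spot signals, without outlier and control spots, were averaged per probe and then per miRNA, and each array was scaled so that the 75th percentile of the 37 miRNAs detected on all 180 arrays equalled 2118, set to a floor of 12.4 (the median over arrays of the lowest detected signal) and taken to log2. A miRNA was tested where detected (more than 50% of its spots well above background) in all 3 animals for 1 or more of the 5 organs. Heart and limb means per animal were fitted with animal as a block in limma 3.58.1 (R 4.3.3, 2 residual degrees of freedom, 9.40 prior), with Benjamini-Hochberg adjustment over 149 miRNAs and a threshold of 0.05.

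Animal numbers were those of the titles and were taken to mark the same rat. Correlations of the paired deviations were 0.24, -0.0028 and 0.052 in animals 4, 5 and 6. Heart and limb muscle of different animals gave -0.12 to 0.044, so these correlations do not show the pairing of animals 5 and 6. On all 3 limb arrays of animal 5 (8 arrays in the series) another label gave another number. All table columns matched a sample. In simulated data for heart minus limb muscle with 149 miRNAs, the fit called 60.6% of planted log2 differences of 0.5, 97.1% of 1 and 99.5% of 2, and 0.963% to 1.74% of the unchanged miRNAs beside them (0.0917% with no difference planted). The simulated arrays had independent noise and no floor, whereas the 2 heart arrays of an animal were nearly alike and many signals lay at the floor. These rates therefore need not hold for the data. Hairpin spans and sequences were from RefSeq (GRCr8), with hairpins within 50 kb taken as neighbours. Named miRNAs were the markers, the tested striated muscle miRNAs, the 12 largest non-overlapping calls in each direction, their other arms, the 3 largest called differences in each direction between soleus and the other muscles, and up to 4 members per list by signal. miR-210, miR-652, miR-652*, miR-29c*, miR-193, miR-365, miR-532-5p, miR-362*, miR-378*, miR-30a* and miR-30d were named after their values were seen. The comparison, its members and the lists were chosen with earlier results of these data known. Scalings, floors, filters, blocks and left-out arrays were varied, as given at the end.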

Additional observations from a re-analysis of the deposited data

Results flagged for a closer look

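As scaled here, miR-30d differed from heart in opposite directions in soleus and in the other muscles. Whether these directions hold with the scalings that moved the median difference was not tested. It read 836, 729 and 830 in femoris, 530, 749 and 688 in gastrocnemial and 429, 263 and 301 in soleus muscle of animals 4, 5 and 6, against 436 to 528 on the heart arrays. Soleus minus the mean of the other muscles was -1.15 on the log2 scale (adjusted p = 0.000604, limma), and this was the test of the difference.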

How the results depend on the processing

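Each value in this paragraph is a count of called miRNAs or a log2 difference, heart minus limb muscle, under another choice, and the cause of a change was not tested. The miRNAs called higher in heart numbered 30 as reported and 94 with the 75th percentile over all miRNAs, 59 with quantile normalization, 86 in the authors' table, 11 with normexp, 16 with a floor 4 times as high and 17 when only miRNAs detected on all 15 arrays were tested. Those called higher in limb muscle numbered 61, and 35, 39 and 38 with the same 3 scalings, 25 with that floor and 31 with that filter. With the 197 miRNAs that any of the 15 arrays detected, 20 and 48 were called, and 15 of 64 named miRNAs lost their call (miR-10a-5p, miR-126*, miR-145, miR-146a, miR-199a-3p, miR-199a-5p, miR-208 of release 16.0, miR-208*, miR-214, miR-29c, miR-29c*, miR-451, miR-652, miR-652* and miR-92a). With no filter, over all 717 miRNAs, 0 and 1 were called, and 71 had an unadjusted p under 0.05. At least 2-fold calls in favour of heart numbered 10, and 48, 24, 37, 3, 5, 2 and 0 with the percentile over all miRNAs, quantile normalization, the authors' table, normexp, the floor, the filter and no filter. Those in favour of limb muscle numbered 39, and 22 with the percentile over all miRNAs, 25 in the authors' table, 16 with the floor, 16 with the filter and 1 without a filter. With 1 animal left out, 18 to 27 were higher in heart, 46 to 69 in limb muscle, 10 to 11 and 34 to 39 at least 2-fold, and the lowest heart count came without animal 5. Heart minus gastrocnemial gave 17 to 29 higher (17 without animal 6), 45 with the percentile of the 90 miRNAs detected on these 15 arrays and 17 higher and 43 lower with the floor 4 times as high, and heart minus soleus 27 lower with that floor. Soleus minus the other muscles gave 4 to 14 higher and 18 to 57 lower with 1 animal left out (6 and 18 without animal 5, 4 higher without animal 6), and 32 and 37 with the percentile of the 90 miRNAs detected on these 15 arrays. Without the replicate block for animal, 32 were higher in heart and 63 in limb muscle, and none of the 64 named miRNAs lost its call. Calls in favour of limb muscle were gained, from 2 to 3 in the miR-15/16 family and from 0 to 1 in the miR-17-92 and miR-106b-25 clusters. With slide as a random block there were 36 and 61, with scan day as a block 39 and 59, and without the 3 limb arrays with 2 animal numbers 31 and 58. Without soleus miR-150, miR-29c and miR-92a lost their call, without femoris miR-150, miR-30a and miR-29c*, and without gastrocnemial miR-30a, miR-652* and miR-29c*. Directions turned with the percentile over all miRNAs for miR-181b (0.31), miR-195 (0.26), miR-223 (0.30), miR-30a (0.53), miR-497 (0.081), miR-652* (0.30) and miR-29c* (0.53). They turned in the authors' table for miR-181b (0.0052), miR-30a (0.23) and miR-29c* (0.22), and with quantile normalization for miR-652* (0.018) and miR-29c* (0.13). Under normexp they turned for miR-145 (-0.24), miR-181c (-0.16), miR-181d (-0.18), miR-208 of release 16.0 (-0.19), miR-208* (-0.28) and miR-342-3p (-0.077). Normexp was planned on the mean spot signal and was run on the median spot signal, which the files hold. Normexp, scan day, the fits on heart or limb arrays alone and the averaged heart arrays were chosen after seeing the data. The number of arrays and signals near background limit the precision, as 14 of 16 Dlk1-Dio3 miRNAs were not detected in heart.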

Other observations

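A few miRNAs outside the lists were chosen after their values were seen. miR-146a and miR-146b, regulators of innate immune signalling with 1 seed in common, went in opposite directions. miR-146a read 257 to 365 in heart and 173 to 286 in limb muscle, a log2 difference of 0.62 (adjusted p = 0.00696, limma, higher in 3 of 3 animals, but 0.071 without animal 5 and 0.12 under normexp). miR-146b read 18.5 to 26.7 in heart and 24.5 to 64.9 in limb muscle, a difference of -1.11 (adjusted p = 0.000128, lower in 3 of 3 animals), which was -0.11 with the percentile over all miRNAs (adjusted p = 0.51) and -0.13 with a floor 4 times as high (adjusted p = 0.089). The difference between the 2 was not tested. miR-204, from a hairpin within the channel gene Trpm3, read 8.34 to 12.7 in heart, at the floor, and 14.5 to 108 in limb muscle, and was detected on 2 of 6 heart arrays and 6 of 9 limb arrays. Neither heart part detected it in all 3 animals, so it entered the test only through limb muscle, which favoured that direction. Against the floor the difference was -1.84 (adjusted p = 2.21e-06), and with a floor 4 times as high it was -0.39 (adjusted p = 0.23), so its size depends on the floor.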
